A study of Mus musculus with 3 samples.

Results

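Dppa3, Gdf9, Zp3 and Kit are 4 genes whose RNA the mouse oocyte makes and stores, and their RNA was measured in 2-cell embryos. They were chosen by name, and each was read over its gene span on the mm9 build: chr6:122576400-122580300 for Dppa3, chr11:53244200-53251600 for Gdf9, chr5:136455500-136465000 for Zp3 and chr5:75971000-76052800 for Kit. These are 4 of 4 members, all with alignments in every litter, set against 265479 windows of 10 kb that tile the assembled nuclear chromosomes. Among windows as long as the span, 55.1% for Dppa3, 39.6% for Gdf9, 33.2% for Zp3 and 3.52% for Kit held no alignment in any litter. Holding alignments therefore says little for a span as long as that of Kit. There was 1 group of 3 libraries, and each library was made from a litter of 2-cell embryos taken at embryonic day 1.5. All mothers were LSD1 FL/FL, homozygous for a floxed allele of a histone demethylase gene, and were ZP3::Cre negative, so they lacked the transgene in which the Zp3 promoter drives Cre recombinase in the growing oocyte. The background was of mixed strain with C57/Bl6J. The labels name the fathers as wild type CB6 males in one field and as C57/Bl6J mice in another. RNA was amplified by SPIA, an isothermal copying of RNA into cDNA, from embryos lysed in a direct lysis buffer. The question was how much of each stored RNA is found at this stage, but an oocyte library was not used here. The values are therefore levels in 2-cell embryos, and the share left from the oocyte is not given.

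A fully grown oocyte stores RNA made during its growth, and the embryo uses and degrades that store while its own genome is switched on around the 2-cell stage. Stored RNA is held with a short poly(A) tail, and the tail is lengthened or the RNA removed through signals near its 3′ end, among them the cytoplasmic polyadenylation element, a uridine-rich motif close to the AATAAA polyadenylation signal. Dppa3 (also called Stella) encodes a small chromatin-binding protein that the oocyte supplies and that shields the maternal genome from loss of DNA methylation after fertilization. Gdf9 encodes a secreted growth factor of the TGF-beta family that the oocyte sends to the surrounding granulosa cells. Zp3 encodes a glycoprotein of the zona pellucida, the coat to which sperm bind, and Kit encodes the receptor tyrosine kinase through which the oocyte receives Kit ligand from granulosa cells. RNA stored by the oocyte and RNA newly made by the embryo cannot be told apart in these libraries, and neither can less RNA per embryo and fewer embryos per litter.

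A pair of sequence types is shown because the results below turn on them: the short exon of Dppa3 that a whole alignment covers only in spliced sequence, and the 3′ ends of all 4 transcripts, toward which coverage was or was not concentrated. The first is exon 3 of Dppa3, in capitals, with 20 bases of exon 2 before it and 20 bases of exon 4 after it. The others are the 30 bases that end with the last AATAAA of each transcript, with that signal and any TTTTAT in capitals. All come from the GENCODE M21 transcripts, on the strand of the gene.
Dppa3 exon 3: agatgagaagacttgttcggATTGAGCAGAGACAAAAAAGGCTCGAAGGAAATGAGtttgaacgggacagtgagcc
Dppa3 end: acgttctaatttccagaaatttgtAATAAA
Gdf9 end: tgctgtggTTTTATgtgacggaagAATAAA
Zp3 end: cttcctaccttgtatcccttccgcAATAAA
Kit end: ctgttgacagttctgaagaattctAATAAA
The last AATAAA stood 13 bases before the annotated end in Dppa3, 17 in Gdf9, 12 in Zp3 and 21 in Kit. The last 100 bases of 58737 protein-coding transcripts were searched on the transcript strand, and AATAAA was found in 42.5% of them. Of the common forms of the cytoplasmic polyadenylation element, TTTTAT was found in 9.86% and TTTTAAT in 3.48%, where TTTTAAT can overlap the start of AATAAA and TTTTAT cannot. Gdf9 was the only member of the 4 with one of these in that window, a TTTTAT that ended 10 bases before the signal. These are matches of letters, not tested sites.

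Dppa3 was by far the most abundant of the 4 RNAs. In litters 1, 2 and 3 its span held 17849, 19663 and 30983 alignments, which is 135, 155 and 196 RPKM (alignments per kb of span per 1000000 nuclear alignments) and 162 ± 31.4 on average (SD, n = 3). Litter 3 was highest, at 1.46 times litter 1. Only 70 of 680557 windows of the same length were at or above the mean of Dppa3, so the span lay above 99.99% of them.

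Zp3 was measured at 3.27, 1.11 and 6.66 RPKM in litters 1 to 3, from 1056, 341 and 2561 alignments (mean 3.68 ± 2.80, SD, n = 3). The highest litter stood 6.02 times above the lowest. Without litter 3 the mean of Zp3 was 2.19 RPKM.

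Gdf9 was measured at 2.07, 2.88 and 0.808 RPKM in litters 1 to 3, from 520, 691 and 242 alignments (mean 1.92 ± 1.04, SD, n = 3). Here litter 3 was lowest, the reverse of its place for the other members. Kit was measured at 0.262, 0.434 and 1.45 RPKM, from 729, 1151 and 4792 alignments (mean 0.714 ± 0.641, SD, n = 3). Kit in litter 3 was 5.52 times its level in litter 1, and without litter 3 the mean was 0.348 ± 0.122 RPKM.

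Of the 4 spans, 2 (Dppa3 and Zp3) reached 1 RPKM in all 3 litters, a level reached by 3.2% of the 10 kb windows of the nuclear genome. Among windows of its own length, the mean of Gdf9 lay above 97.1%, that of Zp3 above 98.3% and that of Kit above 88.8%. A span counts introns as length, so levels of different genes were compared over exons.

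**Figure D1:**
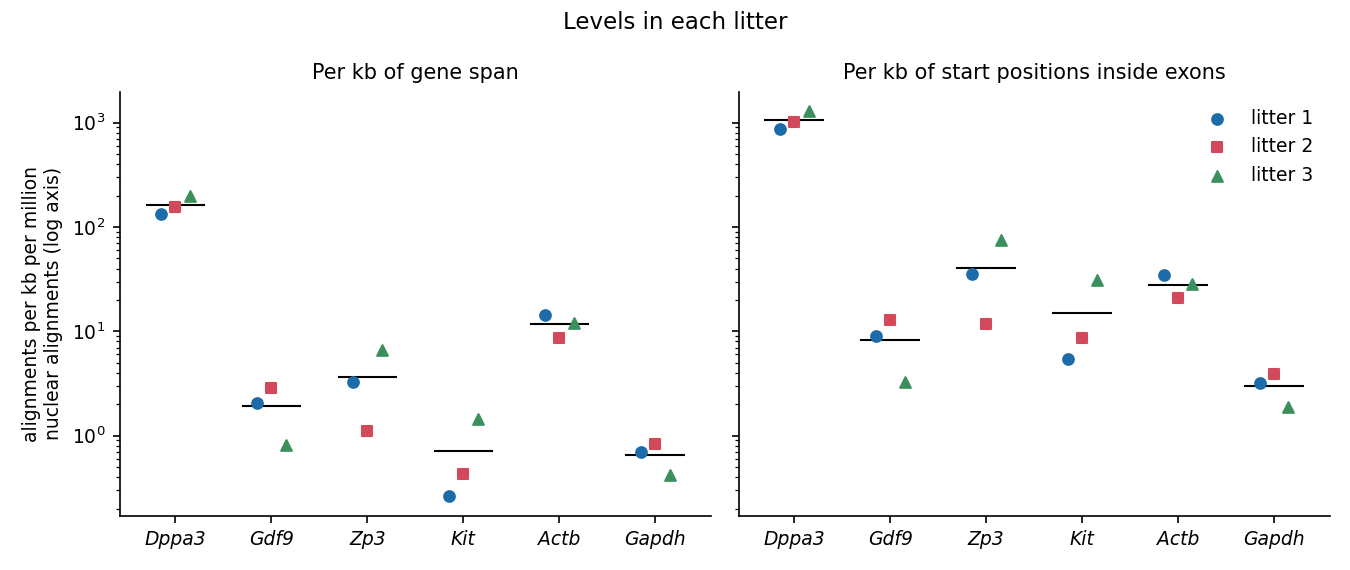
Level of each member, and of Actb and Gapdh as a scale, in each litter (points) with the mean of 3 litters (bar), as alignments per kb per 1000000 nuclear alignments on a log axis, per kb of gene span on the left and per kb of start positions inside exons on the right. Dppa3 stands above every other gene in every litter on both scales, while Gdf9, Zp3 and Kit overlap.

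Coverage split exactly into ungapped 72-base alignments, so no alignment was split over an exon junction. The exon layout of 1 annotated transcript of each gene was laid on the mm9 coverage at the offset that put most alignments wholly inside an exon. At that offset exons held 97.8% ± 0.243 of the alignments in the Dppa3 span, 95.4% ± 4.35 for Gdf9, 86.8% ± 2.74 for Zp3 and 94.7% ± 3.45 for Kit (SD, n = 3). The median over all offsets tried was 0.0264% for Dppa3, 17.6% for Gdf9, 1.82% for Zp3 and 49.9% for Kit. The offset was chosen for this share, so a high value is partly given by the choice. Of the alignments in the Zp3 span that were not wholly inside an exon, 146, 30 and 244 in litters 1 to 3 overlapped an exon in part, and 8, 21 and 13 lay in introns. Those that overlapped an exon in part numbered 411, 430 and 596 in Dppa3, 2, 4 and 0 in Gdf9, and 28, 88 and 74 in Kit. Whether they came from reads that cross a junction was not tested.

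Introns held few alignments. The introns of Kit, 76.6 kb in all, held 11, 12 and 12 alignments in litters 1 to 3. Those of Dppa3 held 13, 31 and 8 in 3.03 kb, those of Zp3 8, 21 and 13 in 7.20 kb, and that of Gdf9 5, 4 and 22 in 2.81 kb. In Gdf9 the intron count was highest in litter 3, the litter with the fewest exon alignments, where the share in exons was 90.5%. By start position, exons stood above introns by 16.5 times or more in every litter and member, and in Kit by 1266 times or more. The offset was chosen to put alignments inside exons, so these ratios are also partly given by the choice.

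Levels between genes were compared per kb of the start positions at which an alignment can lie wholly inside an exon, per 1000000 nuclear alignments. For Dppa3 this exon level had values of 877, 1014 and 1285 over litters 1 to 3 (1059 ± 208, SD, n = 3). Zp3 had 35.1, 11.8 and 75.4 (40.8 ± 32.2), Kit 5.45, 8.70 and 31.2 (15.1 ± 14.0) and Gdf9 8.99, 12.7 and 3.28 (8.34 ± 4.76). Without litter 3 the mean exon level was 23.5 for Zp3, 7.08 for Kit and 10.9 for Gdf9, so that Gdf9 then stood above Kit.

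Within a litter, Dppa3 exceeded Gdf9 by 79.6 to 392 times, Kit by 41.2 to 161 times and Zp3 by 17.0 to 85.6 times in exon level. Values of Dppa3 overlapped those of no other member. For each of these pairs the exact two-sided sign-flip permutation p was 0.25, the smallest that 3 litters allow, and 0.375 after Benjamini-Hochberg adjustment over the 6 pairs. The other 3 members overlapped each other. Zp3 exceeded Kit in 3 of 3 litters, by 1.36 to 6.45 times, but their ranges over litters overlapped. Per kb of bases with a coverage of at least 5 in every litter, Zp3 exceeded Kit in 2 of 3 litters. On that scale it stood at 0.948 times Kit in litter 2. Gdf9 exceeded Kit in 2 of 3 litters and Zp3 in 1 of 3, with litter 3 the farthest the other way in both pairs.

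As a scale, Actb, the cytoskeletal beta-actin gene, had an exon level of 34.3, 20.8 and 28.4 in litters 1 to 3 (27.8 ± 6.74, SD, n = 3). Dppa3 exceeded it by 25.6 to 48.6 times, and the ranges of Zp3 and Kit overlapped it. Gapdh, a gene of glycolysis, had 3.21, 3.87 and 1.90. Both genes have processed copies elsewhere in the genome by general knowledge, and the aligner's rule for reads with several matches is not stated in the labels. The exon layout of Gapdh matched the coverage equally well at 43 offsets, and 40.6% to 52.3% of its alignments lay at its 10 most used starts.

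Dppa3 was covered along nearly its whole length. Of its exon start positions, 99.8%, 99.7% and 100% held at least 1 alignment in litters 1 to 3, with 28.7, 29.5 and 50.1 alignments per start in use over the span. Kit used 13.3%, 18.1% and 31.9% of its positions, Gdf9 18.3%, 23.7% and 10.8%, and Zp3 39.7%, 23.97% and 68.1%. A count of distinct starts therefore can hardly rise further for Dppa3 while it can for the others, and on that scale Dppa3 had 15.7 ± 1.06 RPKM. The 10 most used starts held 4.49% to 12.9% of the alignments of a member in any litter, so no member's level rested on a few single starts. That share does not show how evenly a transcript was covered. In litter 3, Kit had a mean coverage, scaled to nuclear alignments, of 1.63 over its transcript. At 600 to 800, 800 to 1000 and 1000 to 1200 bases from its end it had 7.83, 12.8 and 8.97. In litters 1 and 2 no value there exceeded 1.17. Gdf9 in litter 2 had 3.58 in its last 200 bases, against 0.849 over its transcript.

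Exons 1, 2 and 4 of Dppa3 were covered in every litter. Exon 1 (201 bases) had exon levels of 299, 209 and 334 in litters 1 to 3, exon 2 (233 bases) 507, 467 and 558, and exon 4 (363 bases), which holds the 3′ end, 1341, 1675 and 2112. Each exon was higher than the one before it in all 3 litters, and exon 4 held 76.4% to 82.6% of the exon alignments on 50% of the positions. Exon 3, printed above, has 36 bases and cannot hold a 72-base alignment, so its count of 0 is fixed by the alignment length. Bases with a coverage of at least 5 in every litter formed 3 blocks of 198, 246 and 378 bases, at chr6:122576433-122576630, chr6:122578586-122578831 and chr6:122579921-122580298. Block edges lay within 12 bases of the exon edges.

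Spliced sequence of Dppa3 was covered at a processed copy on chromosome X. This copy, Dppa3-ps, is a pseudogene of 451 bases without introns, annotated to match bases 116 to 566 of the 833-base transcript at 98.2% identity, with 8 differences and no gap. It was placed on the coverage at chrX:35040151-35040601, to within the 11 bases over which the exon layout of Dppa3 can move, and there 62 sets of start counts were equal to those of the gene in all 3 litters, against 19 at the next best place. In the 30 windows of 72 bases that lie inside 1 exon and have no difference, the gene held 545, 493 and 647 alignments in litters 1 to 3 and the copy 543, 493 and 640. Counts were equal in all 3 litters in 26 of these 30 windows, as where reads are counted at both places. The place on chromosome X was chosen for its number of equal sets, so such equality is partly given by the choice. The values throughout are therefore counts of alignments, and a read can enter them, and the nuclear totals, more than once. Reads of the gene and of the copy cannot be told apart in such windows.

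Where gene and copy differ, the copy held fewer. With 1 difference in the window the copy held 96.1%, 96.7% and 97.1% of the count of the gene in litters 1 to 3. With 2 differences it held 91.6%, 91.0% and 92.2%, and with 3 differences 71.99%, 73.96% and 70.5%. The share fell with each further difference in every litter. Alignments on chromosome X also continued past the annotated copy: over all positions that correspond to exon 4 there were 6575, 7856 and 12719, about 50% of the gene, and over those of exon 1 there were 556, 386 and 707. The sequence beyond the annotated 451 bases was not used here, so the differences there are not given.

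At 178 start positions the 72 bases cross an exon junction of Dppa3, and there the copy, but not the gene, offers an ungapped place for the whole window. The copy matches the transcript without a difference in 10 of these 178 windows. Reads of spliced Dppa3 RNA and of any RNA made from the copy cannot be told apart there. All 178 held alignments on chromosome X in every litter, 3375, 3149 and 4126 in litters 1 to 3. These are levels of 557, 545 and 573 in litters 1 to 3. The 10 windows without a difference had 370, 265 and 393, below the 534, 507 and 533 of the gene in windows inside an exon without a difference. The 2 kinds of window lie at different places along the transcript. In 37 of these positions the window holds the whole of exon 3, and they had 931, 903 and 1075 alignments. The 36 bases of exon 3 were thus represented at levels of 740, 753 and 718 on chromosome X, between the levels of exons 2 and 4 on chromosome 6. The positions on chromosome X that correspond to exon 2 had 448, 416 and 495, and those of exon 4 had 662, 830 and 1076. Within chromosome X, exon 3 therefore stood above exon 4 in litter 1.

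**Figure D2:**
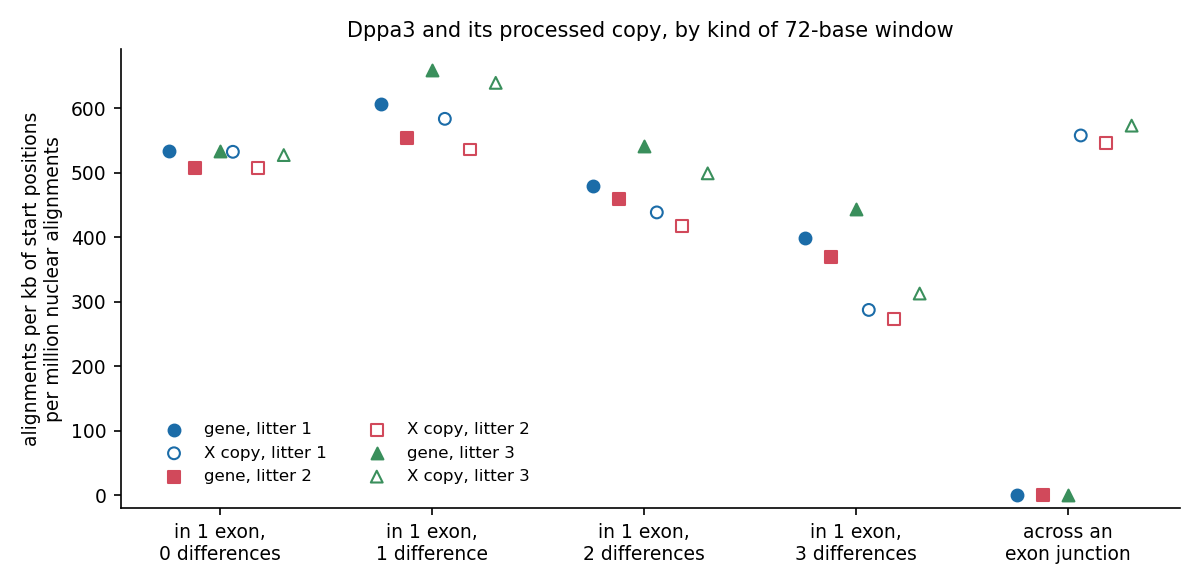
Alignments per kb of start positions per 1000000 nuclear alignments on the Dppa3 gene (filled) and on its processed copy on chromosome X (open) in each litter, for 72-base windows inside 1 exon with 0 to 3 differences between gene and copy and for windows across an exon junction. The places are level at 0 differences and the copy is lower at 3. Across junctions the copy holds alignments at 545 to 573, and the 0 of the gene is fixed, since it offers no ungapped place for such a window.

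Equal start counts elsewhere in the genome were less common in Dppa3 than among nuclear positions in general. Of 264 Dppa3 positions that reached 20 alignments in each litter, 67 (25.4%, Wilson 95% interval 20.5% to 31.0%) had a set of 3 counts found at another nuclear position, against 63.7% of 76783 such positions. Sets of high counts coincide less often than sets of low ones, and the positions were not matched on depth. Without the positions of such counts the mean level of Dppa3 was 142 RPKM. Reads with several matches can remain in that value, because only positions with equal counts were left out. In windows with 1 difference from the copy, counts were equal in all 3 litters in 27.5% of 80 windows. The copy held 96.1%, 96.7% and 97.1% of the count of the gene there. Gdf9, Zp3 and Kit had 0 positions at that depth, so the same question cannot be asked of them.

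Coverage of Dppa3 rose toward the 3′ end. Mean coverage, per 1000000 nuclear alignments, in the last 200 bases of the transcript was 90.1, 118 and 154 in litters 1 to 3, against 14.98, 10.7 and 16.7 at 600 to 800 bases from the end. With the covered bases split at their middle, the 3′ side exceeded the 5′ side by 1.76, 2.32 and 2.25 on the log2 scale (2.11 ± 0.31, SD, n = 3). This was so in 3 of 3 litters, and the exact sign-flip permutation test gave p = 0.25, the smallest possible. By distinct starts per base the lean of Dppa3 was only 0.044, on a count that can hardly rise further for this gene. Ungapped alignments cannot cross junctions, which lowers coverage near each of them.

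Zp3 leaned the same way. The last 200 bases had a coverage of 2.41, 1.78 and 8.59 in litters 1 to 3, and the bases 1000 to 1200 from the end 0, 0.0111 and 1.66. Over covered blocks the lean was 0.35, 1.32 and 2.18 (1.28 ± 0.91 log2, SD, n = 3, exact permutation p = 0.25). Without litter 3 it was 0.83, and over blocks at a coverage of at least 20 it was 0.26, with an exact permutation p of 0.75. Over all exon positions, which also count the thinly covered first exons, it was 4.29, 4.01 and 2.40.

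The 3′ exons of Zp3 carried most of its coverage. Exon 1 had 0, 2 and 295 alignments over litters 1 to 3, those of litter 3 at 157 distinct starts. With 273 start positions, 0 alignments in litter 1 allow an exon level of up to 0.323, against 26.7 in litter 3. Exon 7 had 109, 20.6 and 240 and exon 8, the last, 43.1, 31.8 and 157. Exons 5 to 7 were the highest in litter 1, exons 6 to 8 in litter 3 and exon 8 in litter 2. Exons with at least 3 alignments numbered 7, 6 and 8 of 8 in litters 1 to 3. The 6 blocks covered in every litter took 756 bases, 755 of them in exons 3 to 8.

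Gdf9 had coverage toward both ends of its transcript, with a 5′ side that differed between litters. The last 200 bases had 2.45, 3.58 and 0.595 in litters 1 to 3, and the bases 800 to 1000 from the end 0.0851, 0.205 and 0.120. The first 193 bases had 1.01, 0.832 and 0.135. At 1400 to 1600 bases from the end coverage was 0.544, 0.671 and 0.494, and at 1200 to 1400 it was 0.339, 0.949 and 0.0516. Of these 5′ stretches, the first bases were highest in litter 1 only. Exon 1 (504 bases) held 168, 176 and 76 alignments and exon 2 (1289 bases) 337, 506 and 143, so litter 3 was lowest in both. By exon level exon 1 had 11.4, 12.5 and 4.34 and exon 2 had 8.13, 12.8 and 2.90.

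Over covered blocks the lean of Gdf9 was 1.15, 1.73 and 0.11 (1.00 ± 0.82 log2, SD, n = 3, exact permutation p = 0.25), and over all exon positions 0.80, 0.50 and 0.25. With the blocks found again it was 0.65 without litter 1 and 0.58 without litter 2, and by distinct starts it was 0.63, with an exact permutation p of 0.5. Its 4 blocks took 516 bases, all in exons. They took 861 bases without litter 1 and 859 without litter 3. The longer blocks lay at chr11:53246935-53247249 in exon 1 and chr11:53251207-53251394 near the 3′ end of exon 2. Uqcrq, a gene of the mitochondrial respiratory chain, overlaps the Gdf9 span by 137 bases outside the Gdf9 exons.

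**Figure D3:**
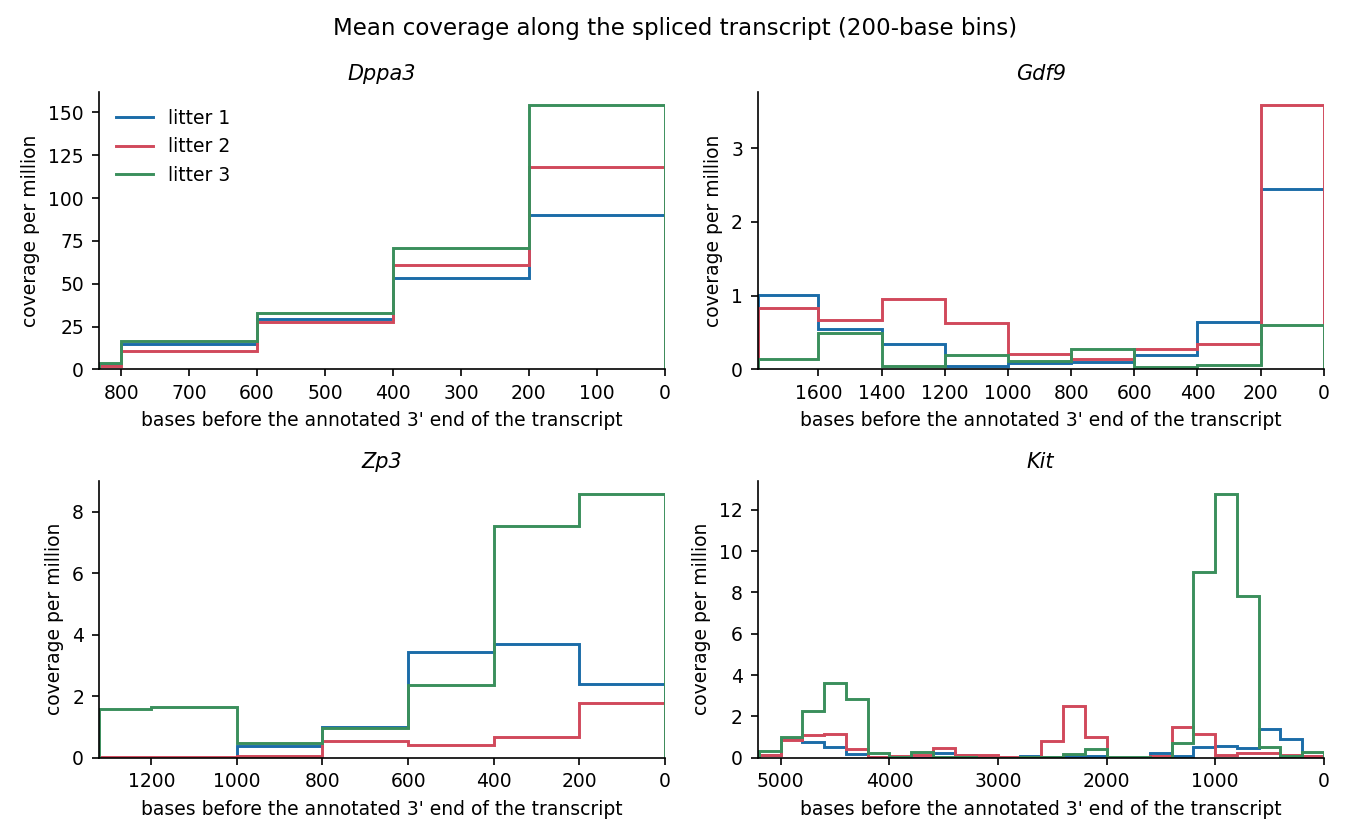
Mean coverage per 1000000 nuclear alignments in 200-base bins along the spliced transcript of each member, drawn from 5′ (left) to the annotated 3′ end (right), with a line for each litter and a linear axis that differs between panels. Dppa3 rises to 90.1 to 154 in the last bin, Gdf9 and Zp3 also end high in most litters, and Kit peaks 600 to 1200 bases before its end in litter 3.

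Kit had little coverage at its annotated 3′ end. Its last 200 bases had a coverage of 0.110, 0.0849 and 0.276 in litters 1 to 3. At 800 to 1000 bases from the end coverage was 0.578, 0.141 and 12.8, so litter 3 stood far above the others there. The lean over covered blocks was 0.29, -0.13 and 0.89 (0.35 ± 0.51 log2, SD, n = 3), above 0 in 2 of 3 litters, with an exact permutation p of 0.5. Without litter 2 it was 1.04 and without litter 3 it was 0.12.

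Litters covered different exons of Kit. The last exon (2309 bases, mostly 3′ untranslated sequence) held 425, 548 and 3579 alignments in litters 1 to 3, which is 61.6%, 52.1% and 76.1% of all exon alignments on 60.1% of the positions. Exon 4 had exon levels of 3.12, 34.1 and 89.8 and exon 5 had 3.96, 5.63 and 61.3. Litter 3 was thus highest both near the 5′ end and in the last exon. Without the last exon the level of Kit was 5.25, 10.4 and 18.8, and the order of the litters was the same.

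Exons 18, 19 and 20 of Kit, which encode part of the kinase domain, held 42, 18 and 57 alignments in litter 2. Litter 1 held 1, 4 and 1 there, and litter 3 held 1 in each. Exons 12, 13 and 15 had 0 alignments in all 3 litters. They have 34, 40 and 18 start positions. A count of 0 allows exon levels of up to 2.59, 2.20 and 4.90 in litter 1, where the whole gene had 5.45, and of up to 2.18, 1.85 and 4.12 in litter 3, where it had 31.2. Exon 2 was nearly level across litters, at 13.4, 12.2 and 13.8. Exons with at least 3 alignments numbered 12, 15 and 12 of 21, and 8 reached that in all 3 litters.

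**Figure D4:**
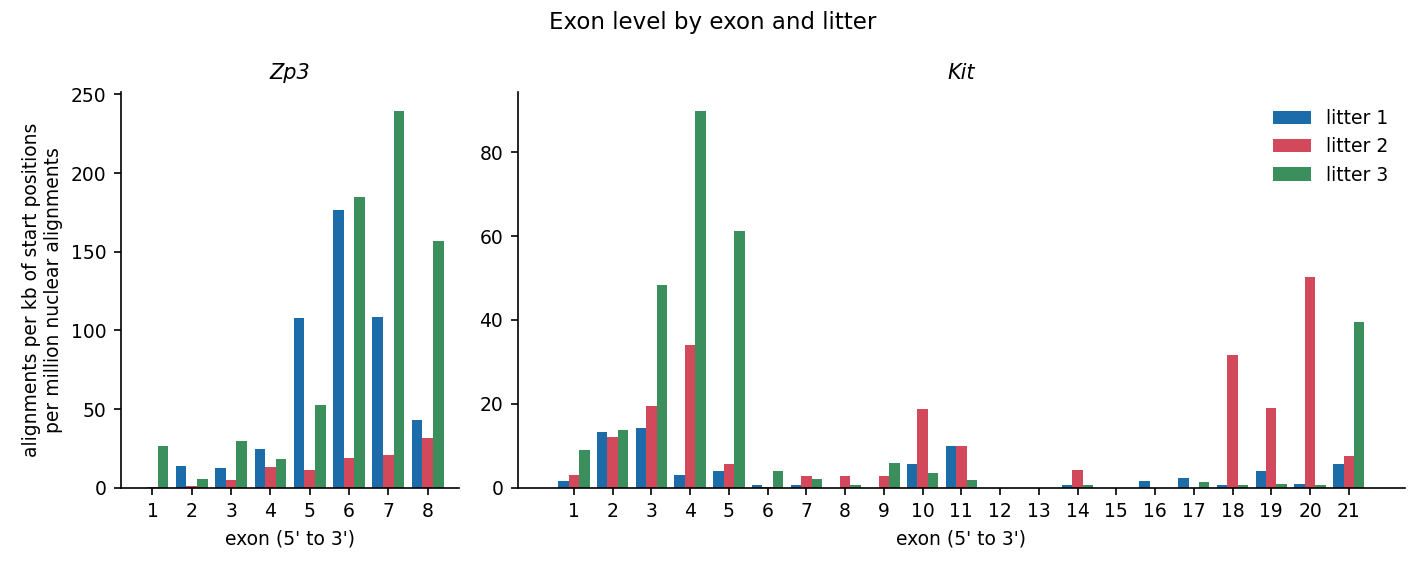
Exon level (alignments per kb of start positions per 1000000 nuclear alignments) of each exon of Zp3 and Kit in each litter, as bars from 0, with axes that differ between panels. Zp3 exon 1 has bars only in litter 3 at this scale, and Kit exons 18 to 20 are high only in litter 2, at 19.1 to 50.2.

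The spread between litters was set beside that of nuclear windows with a like number of alignments. The coefficient of variation of RPKM over litters was 19.4% for Dppa3, against a median of 19.7% over 98 windows, and 54.4% for Gdf9, against 58.3% over 7164 windows. Zp3 had 76.1% against 38.0% over 3689 windows, and Kit 89.7% against 31.0% over 2402 windows. Of the windows of like depth, 87.0% varied less than Zp3 and 95.6% less than Kit. Of those for Dppa3 and Gdf9, 50% and 45.6% varied less. With the median of ratios as the scaling, Dppa3 moved to the other side of its windows, at 30.7% against a median of 28.5%, with 62.2% of windows varying less.

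Depth was similar in the 3 libraries, at 32431630 to 40474940 nuclear alignments. A median of ratios over windows, used as another scaling, moved the libraries by factors of 0.968, 1.17 and 0.876, less than the differences between litters for Zp3, Kit and Gdf9. The labels number the litters, and each is 1 library. Amplified reads here carry no molecular identifiers, so intervals and limits cover counting error only.

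Flanking sequence was mostly lower than the spans. The 5 kb after each gene in genome order had at most 0.0185 RPKM for Dppa3, 0.518 for Gdf9, 0.0470 for Zp3 and 0.00588 for Kit in any litter. The 5 kb before Dppa3 had 0.341, 0 and 1.15 RPKM in litters 1 to 3, under 1% of its span in each litter, and the 5 kb before Zp3 had 0.308 to 0.359. Before Gdf9 the values were 0.612, 0.481 and 0.652, so in litter 3 the span, at 0.808, was little above its flank. With 10 kb on each side, the Gdf9 span stood at 5.09, 2.48 and 0.970 times its flanks in litters 1 to 3. A span counts introns as length, and in litter 3 Gdf9 had a level of 3.28 in exons against 0.198 in its intron. A flank can also hold another gene, and Uqcrq overlaps the Gdf9 span by 137 bases. Before Kit the flank had 0.406, 0 and 0.0544, and in litter 1 the span, at 0.262, was below its flank. The level of Kit in litter 1 was 5.45 in exons and 0.00430 in introns.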

How the data were processed

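RNA from 3 litters of 2-cell embryos was amplified by SPIA (Nugen Ovation kit) and the sheared cDNA was sequenced on Illumina libraries, per the labels' protocols. The submitters' processing notes name Bowtie and the mm9 build. The version of the aligner and its rule for reads with several matches are not stated there. Each deposited file holds signal, that is unscaled coverage per base, per the file headers.

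Coverage on nuclear chromosomes was split into ungapped 72-base alignments, with 0 negative starts in every litter; strand is unknown. The splitting and the exon offsets were tested on simulated data. RPKM is alignments per kb of span per 1000000 nuclear alignments. The members, their spans and the lists were chosen with earlier results of these data known. All 4 members are named; an annotation of mm9 was not used here, so other oocyte genes, cumulus cell markers and genes of a like pattern were not analysed. Exon lengths and distances come from the first-numbered transcript of each gene in GENCODE M21 (GRCm38) and were slid along the mm9 coverage by up to 1500 bases beyond each span, with no position converted. The offset of best fit was 1 place for each member, and 11, 33, 5 and 14 places came within 1 percentage point for Dppa3, Gdf9, Zp3 and Kit, so exon edges are known only to within about such a number of bases. An exon detected means at least 3 alignments, and 3 is also the limit that a count of 0 allows. The exon-position levels and the comparison with the Dppa3 copy were chosen after seeing the data.

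With 1 group, levels have no test. For ratios within litters the signs were flipped in an exact two-sided permutation test, whose smallest p for 3 litters is 0.25. Alternatives were the scaling, distinct starts, span edges, coverage minimum, joining distance, a pseudocount of 0.1, the RPKM threshold and leaving out each litter. The work was done in Python 3.11.15 with scipy 1.17.1, pandas 2.3.3 and numpy 2.4.6, and drawn with matplotlib 3.10.9.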

Additional observations from a re-analysis of the deposited data

How the results depend on the processing

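No paired analysis was possible because there is 1 group, so no groups share replicate numbers; ratios were taken within litters. The level of Dppa3 moved to 15.7 RPKM by distinct starts, 116 when scaled to all alignments and 107 with 1 kb added on each side, and that of Gdf9 to 3.94 by distinct starts. Per exon start position, an alternative chosen after seeing the data, levels were 1059, 8.34, 40.8 and 15.1 for Dppa3, Gdf9, Zp3 and Kit, by construction, since introns no longer count as length. The bases covered in every litter were 1048 and 198 for Gdf9 at a minimum coverage of 2 and 20, 413 for Zp3 at 20, and 2613 and 437 for Kit. Without each litter in turn Gdf9 had 581 to 861. The lean of Kit reversed to -0.29 between the outermost 25% at each end. Gdf9 over Zp3 reversed to 0.059 by distinct starts and ranged from -1.85 to 0.36 without a litter, and Gdf9 over Kit reversed to -0.24 per kb of block and -0.66 per exon position (log2); the cause was not tested. The coefficient of variation was 30.7% for Dppa3 with the median of ratios, and by distinct starts 6.76%, 29.99%, 47.1% and 40.8% for Dppa3, Gdf9, Zp3 and Kit. Shared start counts of Dppa3 were 51.4% at a minimum of 10 and 6% at 50. Windows at 0.5 RPKM numbered 12748 (4.80% of all windows), with 3 members, and at 2 RPKM 5135 (1.93%), with 1 member. The other 117 alternatives kept direction and side or moved by less than the spread between litters (counts, 1.5 times). Among them is the lean by distinct starts, which kept its direction at 0.044 for Dppa3, 0.63 for Gdf9, 0.75 for Zp3 and 0.019 for Kit (log2). Blocks at a coverage of 20 gave no lean for Gdf9, which then had under 200 bases. With 3 litters of 1 group, no test can reach 0.05, Kit and Gdf9 rest on as few as 729 and 242 alignments in a litter, and strand, other transcripts of each gene and reads with several matches are not resolved.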
